A study of Mus musculus with 12 samples.

Results

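Lipid-associated macrophages are cells that take up and store lipid, and the 9 genes described here, Trem2, Tyrobp, Apoe, Gpnmb, Fabp5, Cd9, Lpl, Lgals3 and Plin2, are commonly used to mark them. The genes were chosen by name. All 9 were found among the 27457 gene symbols of a single-cell RNA-seq count table, of which 26938 had a count. Their unique molecular identifier (UMI) counts, each UMI marking a captured transcript, were summed over the cells of a cluster and over the cells of a tumor.

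The table held 93126 cells of 48 tumors of MC38, a mouse colon carcinoma line of C57BL/6 origin, grown under the skin of female mice 8 to 12 weeks old. Hosts were C57BL/6J animals (B6) or their F1 offspring with a Collaborative Cross (CC) strain, an inbred strain bred from several founders, so every host carried a B6 genome copy. Tumors of 75 to 110 mm3 were followed by 1 dose of 200 µg of isotype control antibody (2A3) or anti-PD-1 antibody (aPD1, 29F.1A12), and were taken 48 h later. Cells were sorted to 90% CD45+ and 10% CD45-, marked with hashtag antibodies and pooled as 4 tumors in each of 12 libraries. The study classed F1 hosts of CC001/UncJ, CC002/UncJ and CC075/UncJ as responders, from tumor growth in other animals, and these gave 10 isotype and 10 aPD1 tumors. F1 hosts of CC036/UncJ, CC079/TauUncJ and CC080/TauUncJ were classed as non-responders and gave 9 tumors of each treatment. The other 10 tumors, of B6 and of CC007/UncJ F1 hosts, have no class here.

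Sets of tumors stood apart in ways that touch the values below. The CC007 aPD1 tumor of pool 6 had 53 cells and the CC002 isotype tumor of pool 12 had 248 cells, whereas total UMIs per tumor reached 17713491 and the median cell had 3333.5 UMIs. Of 87940 cell barcodes, 4990 occurred in 2 or more pools, so a cell was identified by its pool and its barcode together. A mouse identifier stood on 2 of the 48 tumors, both CC080. Isotype and aPD1 tumors never carried the same hashtag, so hashtag and treatment cannot be told apart. CC036 and CC075 hosts were in pools 8 to 12 and CC079 hosts in pools 1, 2 and 5, so that strain and pool overlap in part.

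TREM2 is a surface receptor of macrophages that binds lipids, lipoproteins and cell debris. It has no signalling tail of its own and passes its signal to the kinase SYK through the adaptor TYROBP, also known as DAP12. In fat tissue, atherosclerotic plaques, the injured brain and many tumors, macrophages with TREM2 carry a shared set of transcripts for lipid uptake, lysosomal breakdown, storage and export. Of the other genes, Apoe encodes the lipoprotein that carries cholesterol out of macrophages, Lpl a secreted lipase that frees fatty acids from triglycerides, and Fabp5 a cytosolic fatty acid carrier. Plin2 encodes the coat protein of lipid droplets. Gpnmb and Cd9 encode membrane proteins, a glycoprotein and a tetraspanin, and Lgals3 encodes the lectin galectin-3.

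The start regions of 3 of the genes are shown because Trem2 gives the group its name and because Gpnmb and Plin2 are members that stood highest in macrophage-like cluster 27, described later, and whose windows held a searched word. Each is 250 bases before to 50 bases after the RefSeq start site in GRCm38.p6, written in the direction of the gene. The letters CACGTG or CATGTG, an E-box that MITF and TFE factors are known to bind, and TGANTCA, which includes the AP-1 site, are in capitals where a search of both strands found them. The Trem2 window is chr17:48346151-48346450 (+), the Gpnmb window chr6:49036268-49036567 (+) and the Plin2 window chr4:86670010-86670309 (-).
Trem2: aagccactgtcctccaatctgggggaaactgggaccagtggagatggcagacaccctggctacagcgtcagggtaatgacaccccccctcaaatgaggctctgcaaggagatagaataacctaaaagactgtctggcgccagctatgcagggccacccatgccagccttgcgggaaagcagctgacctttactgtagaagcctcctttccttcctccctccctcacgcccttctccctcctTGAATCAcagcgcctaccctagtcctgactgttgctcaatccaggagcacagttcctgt
Gpnmb: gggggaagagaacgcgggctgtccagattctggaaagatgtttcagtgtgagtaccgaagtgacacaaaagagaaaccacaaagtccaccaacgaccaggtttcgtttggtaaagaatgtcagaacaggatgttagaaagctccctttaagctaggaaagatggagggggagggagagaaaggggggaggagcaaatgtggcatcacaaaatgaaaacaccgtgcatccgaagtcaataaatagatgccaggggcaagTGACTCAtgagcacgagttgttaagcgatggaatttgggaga
Plin2: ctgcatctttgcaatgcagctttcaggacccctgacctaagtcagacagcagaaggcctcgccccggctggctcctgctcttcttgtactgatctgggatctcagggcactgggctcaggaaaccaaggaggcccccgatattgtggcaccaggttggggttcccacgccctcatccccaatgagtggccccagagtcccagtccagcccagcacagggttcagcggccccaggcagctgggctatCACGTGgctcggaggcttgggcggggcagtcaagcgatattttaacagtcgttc

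The Plin2 window held CACGTG with its first base at -4, the first transcribed base being 1. CACGTG was in 7.15% of all 32851 such windows. The Gpnmb window held TGACTCA at 9, and the Trem2 window TGAATCA at -9, and TGANTCA was in 7.81% of all windows. Also searched on both strands were AGGTCA, the core of nuclear receptor sites, and GAGGAA, the core of PU.1 sites. The window of Trem2 held AGGTCA at -68 and GAGGAA at -40, and Plin2 held AGGTCA at -218, against 16.3% of all windows with AGGTCA and 28.3% with GAGGAA. Windows were found for 6 of the 9 genes, with the exception of Tyrobp, Fabp5 and Lpl. Among these, the Cd9 window held CATGTG, which was in 14.2% of all windows, and 2 of 3 Apoe windows held GAGGAA. No match overlapped a match of another word. The genes lie on chromosomes 17 (Trem2), 7 (Tyrobp and Apoe), 6 (Gpnmb and Cd9), 3 (Fabp5), 8 (Lpl), 14 (Lgals3) and 4 (Plin2), and all 9 are annotated as protein-coding. Trem2 itself spans chr17:48346401-48354147 on the + strand.

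The first question was which cells of these tumors carried the transcripts. The cluster column of the cell table gives 27 clusters by number, and each was named here from marker genes. Of these, 10 were macrophage-like (clusters 2, 4, 5, 9, 15, 17, 19, 21, 26 and 27) and held 68059 of the 93126 cells. Of all Trem2 UMIs, 97.5% were in these clusters, which held 73.1% of all cells. Apoe was similar, with 98.4% of its UMIs there. The share was 88.2% for Tyrobp, 89.6% for Plin2, 87.5% for Gpnmb, 87.3% for Lgals3, 82.6% for Lpl and 79.9% for Cd9. Fabp5 stood lowest at 65.9%, since migratory DC-like cluster 11 alone held 20.1% of its UMIs. The label of the group, macrophage genes, thus described Trem2 and Apoe closely and Fabp5 and Cd9 less so.

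**Figure D1:**
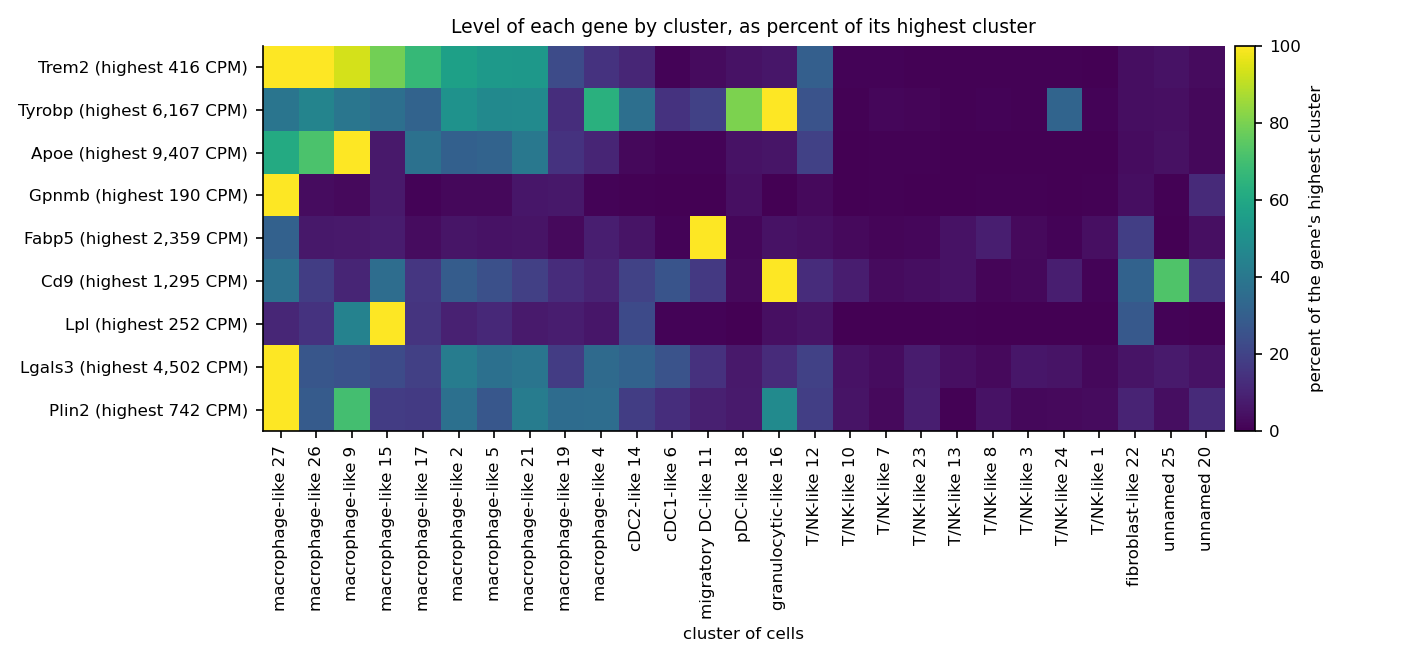
Levels of the 9 genes as CPM (UMI counts scaled to a fixed total per cluster) in the 27 clusters, each cell of the plot colored as percent of that gene's highest cluster, whose CPM stands beside the gene. Trem2 was near its highest level in macrophage-like clusters 27, 26 and 9, whereas Tyrobp and Cd9 peaked in granulocytic-like cluster 16, Fabp5 in migratory DC-like cluster 11 and Lpl in macrophage-like cluster 15.

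Levels by cluster are given as CPM, the UMIs of a gene scaled to all UMIs of the cluster. They are not scaled to gene length, so they are compared between clusters and not between genes. Clusters were made from the genes of these same cells, and their levels are a description with no test. Trem2 was at 416 CPM in cluster 27, 415 CPM in cluster 26, 388 CPM in cluster 9 and 328 CPM in cluster 15, where the median over its 5 tumors was 410 CPM. Cluster 26 is led by Cxcl13, Fcrls and Ms4a7, and cluster 9 by Lyve1, Cd163 and Folr2, genes of resident macrophages. Trem2 stood lower, at 279 CPM, in cluster 17 (led by histone genes) and between 221 and 235 CPM in clusters 2, 5 and 21. It was at 95.7 CPM in cluster 19 and at 60.5 CPM in cluster 4, which is led by Ace and Adgre4, genes of monocytes.

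Over the tumors with at least 20 cells of a cluster, the interquartile ranges of neighbors in this order overlapped from cluster 27 down to cluster 21, and that of cluster 19 (45.5 to 121 CPM) lay below that of cluster 21 (164 to 239 CPM). Trem2 in cluster 27 had a median of 409 CPM and an interquartile range of 353 to 482 CPM over 45 tumors, and in cluster 26 a median of 394 CPM and a range of 332 to 448 CPM over 47 tumors. In cluster 2 the median was 236 CPM with a range of 193 to 269 CPM over 47 tumors. Cluster 2 therefore lay below clusters 26 and 27 by more than the interquartile spread, and clusters 26 and 27 overlapped. Outside the macrophage-like clusters, T/NK-like cluster 12, which also had hemoglobin genes among its leading genes, was at 125 CPM, and cDC2-like cluster 14 at 44.8 CPM. The other T/NK-like clusters were at 0.906 to 3.69 CPM.

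The share of cells with a Trem2 UMI was compared after thinning every cell to 1000 UMIs. It was 20.4% of 63780 macrophage-like cells, with a median of 3699 UMIs per cell before thinning and an unthinned share of 50.7%. In T/NK-like cells, which should lack the gene, it was 0.618% (60 of 9716 cells, median of 2353.5 UMIs, unthinned 2.05%). Before thinning, 322 of the 404 Trem2 UMIs of T/NK-like cells were in cluster 12, so this background came largely from 1 cluster. The macrophage-like share was thus well over this background. It was 31.0% in cluster 26, 29.2% in cluster 27, 25.8% in cluster 9 and 4.21% in cluster 4. In cDC2-like cells 3.40% had a Trem2 UMI at a median of 5388.5 UMIs, above the T/NK-like background.

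The adaptor peaked in other cell types than its receptor. Tyrobp was highest in granulocytic-like cluster 16 (6167 CPM), pDC-like cluster 18 (4948 CPM) and monocyte-gene cluster 4 (3920 CPM), where Trem2 was at 24.9, 20.03 and 60.5 CPM. Tyrobp also serves other receptors of myeloid and NK cells, and NK-gene cluster 24 had 1986 CPM. Among the macrophage-like clusters its level ran from 803 CPM in cluster 19 to 3920 CPM in cluster 4. The correlation of log2(CPM + 1) over all 27 clusters, a description in which clusters share libraries, was 0.739 between Tyrobp and Trem2.

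By the same measure, over 7374 genes that reached 50 CPM in some cluster, the genes most like Trem2 were C3ar1 (r = 0.980), C1qc (0.975), C1qa (0.974), Mfsd1 (0.974) and C1qb (0.973). C1qa and C1qb were also among the markers that named the macrophage-like clusters. Of the members, Apoe was nearest to Trem2 with 0.960, followed by Lpl (0.863), Lgals3 (0.834), Plin2 (0.822), Tyrobp (0.739), Gpnmb (0.651), Cd9 (0.576) and Fabp5 (0.314). Over the 10 macrophage-like clusters alone the order was another, with Apoe at 0.626, Lpl at 0.550, Cd9 at 0.533, Gpnmb at 0.379, Fabp5 at 0.353, Lgals3 at 0.216, Plin2 at 0.145 and Tyrobp at 0.133. The group therefore did not move as 1 block over cell types.

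The lipid genes had separate summits. Apoe was at 9407 CPM in Lyve1 cluster 9, 6755 CPM in cluster 26 and 5742 CPM in cluster 27, and at 642 CPM in cluster 15. Lpl had its highest level in cluster 15, where Apoe stood lowest of these 4. It was at 252 CPM in cluster 15, which is led by Ctsk, Mmp9 and Acp5, genes known from osteoclasts, against 112 CPM in cluster 9, 37.1 CPM in cluster 26 and 26.9 CPM in cluster 27. Lpl was also at 70.8 CPM in fibroblast-like cluster 22 and 56.5 CPM in cDC2-like cluster 14, but as medians over tumors these stood in the other order, at 24.7 CPM over 9 tumors, the highest of them at 344 CPM, and 39.3 CPM over 44 tumors. Cluster 15 held 293 cells, and its Lpl level over the 5 tumors with at least 20 of them ran from 154 to 383 CPM.

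Fabp5 was at 2359 CPM in migratory DC-like cluster 11, 736 CPM in cluster 27, 437 CPM in fibroblast-like cluster 22 and 200 CPM or less in all other clusters. Plin2 was at 742 CPM in cluster 27, 519 CPM in cluster 9 and 356 CPM in granulocytic-like cluster 16. Cd9 was at 1295 CPM in cluster 16, 481 CPM in cluster 27 and 462 CPM in cluster 15, with medians over tumors of 1461, 454 and 546 CPM. Unnamed cluster 25, which mixes keratin and immunoglobulin genes, was at 940 CPM over all its cells, but its only 2 tumors with at least 20 cells were at 0 and 675 CPM. For Fabp5 and Cd9 the highest cluster was thus not a macrophage-like one.

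Cluster 27 held the highest level of Gpnmb, Lgals3 and Plin2, and, in sums over all tumors, of Trem2 together with cluster 26, whereas Tyrobp and Cd9 both peaked in cluster 16. Its leading genes were Gpnmb, Ppbp, Hspb1, Hmox1 and Mmp12, so Gpnmb helped to define it. It held 4115 cells and 61.5% of all Gpnmb UMIs. Gpnmb was at 190.1 CPM there, and the next clusters were unnamed cluster 20 with 22.9 CPM and cluster 15 with 12.8 CPM.

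The same contrast was then counted within each tumor, for the 45 tumors with at least 20 cells of cluster 27. Gpnmb was higher in cluster 27 than in the other macrophage-like cells of the same tumor in 45 of 45 tumors, with medians of 134 and 4.21 CPM. Plin2 (747 against 241 CPM), Fabp5 (707 against 138 CPM) and Lgals3 (4536 against 1483 CPM) were also higher in 45 of 45. The droplet coat, the fatty acid carrier and galectin-3 were thus raised with Gpnmb in every tumor examined. Cd9 was higher in 44 tumors (454 against 243 CPM), Trem2 in 43 (409 against 272 CPM) and Apoe in 38 (5315 against 3625 CPM).

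Lpl and Tyrobp went the other way. Lpl was higher in cluster 27 in 10 of 45 tumors, with medians of 15.7 and 31.3 CPM, and Tyrobp in 2 of 45, with medians of 2415 and 2891 CPM. Against cluster 26 alone, Trem2 was higher in cluster 27 in 24 of 45 tumors (409 against 393 CPM) and Apoe in 17 (5315 against 5875 CPM). Gpnmb, Plin2, Fabp5, Lgals3 and Cd9 were each higher in cluster 27 than in cluster 26 in 45 of 45 tumors, Lpl in 8 and Tyrobp in 7. Trem2 and Apoe did not set the 2 clusters apart. Cells were put in clusters by their own expression, so these counts of tumors describe the clusters and are no test.

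**Figure D2:**
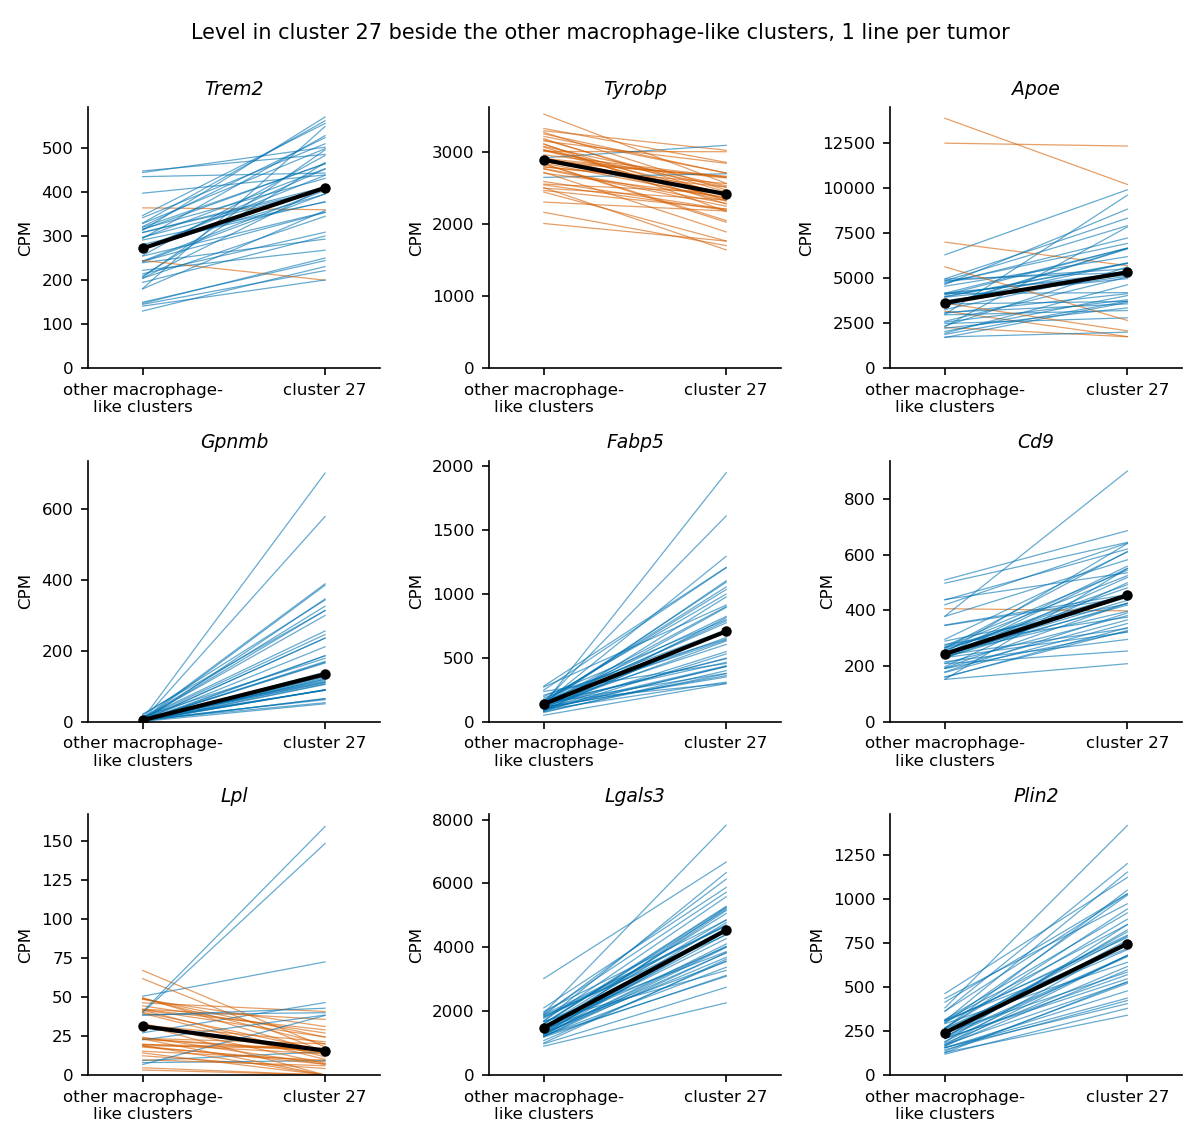
CPM of each gene in cluster 27 and in the other macrophage-like clusters together, with 1 line for each of 45 tumors (blue where cluster 27 was higher, orange where it was lower) and medians in black. Every line rises for Gpnmb, Fabp5, Lgals3 and Plin2, and most fall for Tyrobp and Lpl.

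Levels by strain within cluster 27 are given as a description, since no test between strains was run there. Gpnmb ran from 211 to 389 CPM with a median of 319 CPM in the 8 CC001 tumors, and from 50.2 to 127 CPM with a median of 65.1 CPM in 5 CC002 tumors. These ranges do not overlap, but the strains were picked as those with the highest and lowest median. The share of all genes with such a pair in this cluster is not given here. The highest single values were 701 CPM in a CC080 tumor and 578 CPM in a B6 tumor. Trem2 in cluster 27 had its lowest median in CC075 tumors, which ran from 199.6 to 308 CPM with a median of 233 CPM, whereas CC001 tumors ran from 354 to 523 CPM. CC075 was picked for that median, and the share of all genes with such a pair is again not given.

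Cluster 27 made up 1.15% to 11.5% of the macrophage-like cells of a tumor, with a median of 5.46%. Its median share was 6.50% in responder isotype, 3.99% in responder aPD1, 7.18% in non-responder isotype and 5.60% in non-responder aPD1 tumors, with ranges that overlap in all 4 groups. Because the cluster was made with Gpnmb among its defining genes and Gpnmb differs between strains, these shares are not compared by a test.

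Other genes of lipid handling, from lists of related genes, were also placed by cluster. Of 11 lipid droplet genes, Plin3 and Hilpda, which encode droplet proteins, were highest in cluster 27. Of 9 genes of cholesterol efflux and the LXR pathway, Soat1, which esterifies cholesterol for storage, was highest there. Of 24 other lipid-associated macrophage genes measured, 16 had their highest cluster among the macrophage-like ones, with Spp1, Hexa and Apoc2 in cluster 27. None of the 6 resident macrophage, 6 monocyte, 8 TREM2 signalling and 5 other TREM family genes was highest in cluster 27. The highest cluster was macrophage-like for 4 of 11 droplet and 4 of 9 efflux genes. It was so for 5 of 6 resident, 4 of 6 monocyte, 4 of 8 signalling and 1 of 5 TREM family genes. The share of all genes with such a highest cluster is not given here, so these counts are no result about the lists.

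It was then asked whether the transcripts were found in the same cells. Macrophage-like cells thinned to 1000 UMIs were split by a Trem2 UMI, 13000 cells with and 50761 without, in 47 tumors with at least 20 cells of the first kind. Apoe was higher in cells with a Trem2 UMI in 47 of 47 tumors, with medians of 5448 and 3190 CPM and a median log2 ratio of 0.69. Gpnmb had medians of 19.6 and 11.4 CPM and was higher in 36 of 47 tumors. Lgals3 was higher in 39, Fabp5 in 37, Tyrobp in 33, Cd9 in 27, and Lpl and Plin2 in 26 each. Apoe was the only member that went with Trem2 in every tumor, and Plin2, Lpl and Cd9 were near an even split. At 2000 UMIs per cell the count for Apoe was again 47 of 47 and that for Gpnmb 40.

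This held for Apoe inside single clusters as well. It was higher in cells with a Trem2 UMI in 44 of 44 tumors within cluster 2, 34 of 38 within cluster 5, 41 of 44 within cluster 26 and 24 of 26 within cluster 27. In cluster 27 the median levels were 6562 and 4361 CPM. Gpnmb was higher in 20 of 26 tumors within cluster 27, whereas Plin2 was higher in 7 of 26, with medians of 641 and 722 CPM. A cell without a Trem2 UMI at this depth may still carry the transcript.

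Across tumors, the macrophage-like level of Trem2 ran from 141 to 480 CPM, with a median of 284 CPM over 48 tumors. The Pearson correlation of log2(CPM + 1) with Apoe was 0.762 and Spearman's rho 0.760 (2-sided permutation test, p = 1e-05 for each, the smallest that 100000 permutations can give). For Lpl these were 0.523 (permutation p = 0.00013) and 0.627 (permutation p = 1e-05), and for Cd9 0.521 (permutation p = 0.00013) and 0.557 (permutation p = 6e-05). Cluster 26, where Trem2 and Apoe both stood near their highest, made up 7.23% of the macrophage-like cells in the tumor with the lowest Trem2 (B6 isotype, pool 6) and 44.3% in the tumor with the highest (CC001 isotype, pool 12), and its part in these relations was not tested. Plin2 went the other way, with r = -0.311 (permutation p = 0.031) and rho = -0.333 (permutation p = 0.0207). Tyrobp (r = 0.247), Gpnmb (0.181), Fabp5 (-0.102) and Lgals3 (-0.090) had permutation p of 0.0895 to 0.543. These 8 relations were computed as a family, and their p-values are unadjusted here. The permutations exchanged all 48 tumors freely although tumors share strains and pools, so these p-values can be too small. No fit of these relations had pool as a term.

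**Figure D3:**
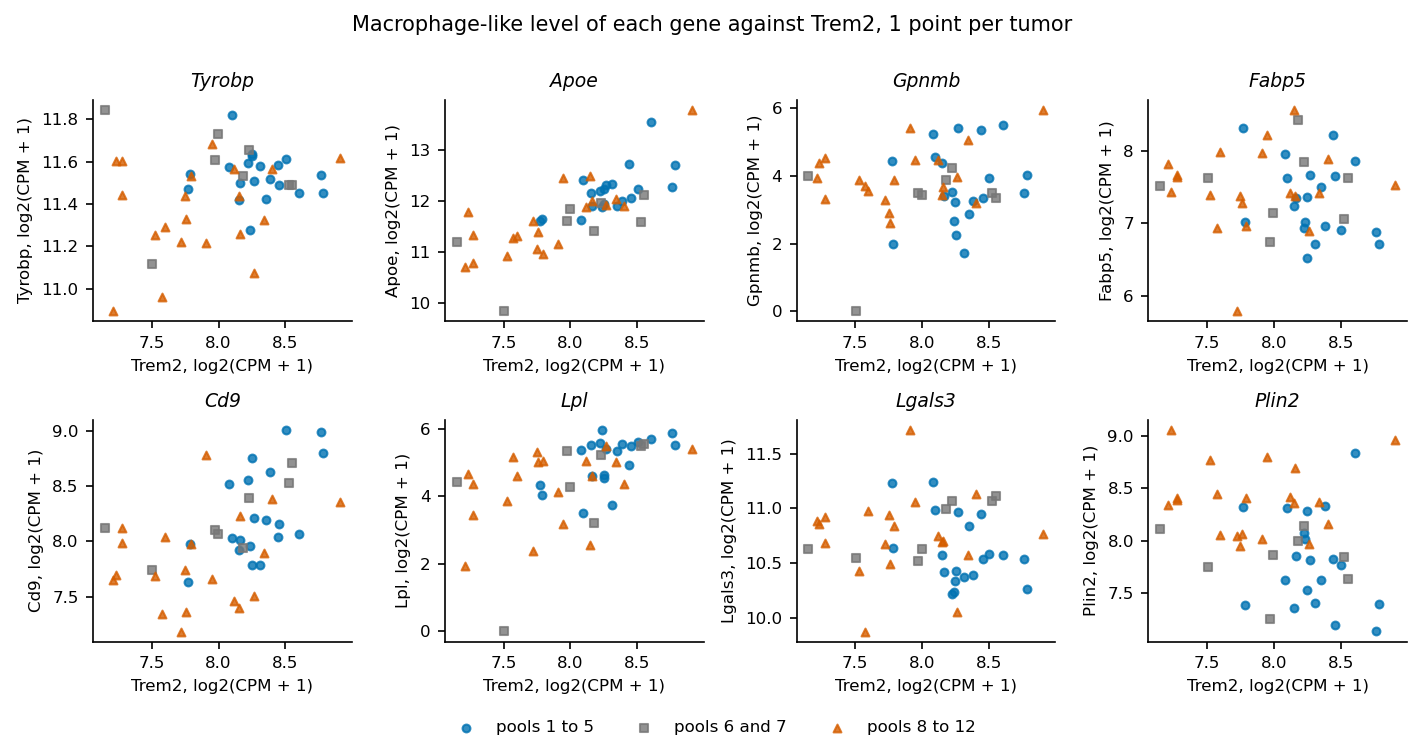
Macrophage-like level of each of the other 8 genes against that of Trem2, both as log2(CPM + 1), with 1 point per tumor and the pools in 3 colors. Apoe rises with Trem2 in pools 1 to 5 and in pools 8 to 12, whereas the rise of Cd9 and Lpl is weaker in pools 8 to 12.

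Many genes followed Trem2 across these tumors, so the relations were also fitted over all genes. With the Trem2 level of the tumor as a term, edgeR's quasi-likelihood test with Benjamini-Hochberg adjustment called 6260 of 12509 genes (50%). Apoe rose by 1.20 ± 0.14 on the log2 scale (SE, n = 48 tumors) for each log2 unit of Trem2 (edgeR adjusted p = 8.002e-09), and 0.16% of genes had a higher correlation with Trem2. Cd9 (0.54 ± 0.12, edgeR adjusted p = 0.0003055) and Lpl (0.99 ± 0.23, edgeR adjusted p = 0.0004171) were also called, and the other 5 were not. These 3 of 8 members are read against a background of 50% of all genes, so their number is no result about the group. Of all genes, 8.04% had a higher correlation with Trem2 than Cd9 had, and 7.97% a higher one than Lpl had.

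The relations were also fitted beside strain. With strain and treatment as terms, 2643 genes (21.1%) were called, with Apoe (edgeR adjusted p = 5.243e-06) and Lpl (edgeR adjusted p = 0.04657) among them and Cd9 at an edgeR adjusted p of 0.1118. In pools 1 to 5 alone (20 tumors) r was 0.655 for Apoe, 0.584 for Cd9, 0.574 for Lpl and -0.164 for Plin2. In pools 8 to 12 alone (20 tumors) these were 0.793, 0.250, 0.362 and 0.023. The relation with Apoe was therefore present in both sets of pools, and those with Cd9 and Lpl were weaker in pools 8 to 12. That with Plin2 was weak or absent in both sets (permutation p = 0.493 and 0.922). Without the 2 tumors farthest from the median of Trem2, r was 0.746 for Apoe, 0.491 for Lpl, 0.543 for Cd9 and -0.308 for Plin2.

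Host strain was the next comparison, over all 48 tumors and 8 host genotypes, with treatment as a term. In macrophage-like cells edgeR's quasi-likelihood test called 6464 of 12510 genes (51.7%) as different between strains. Of the 9 members 6 were called, a share near that background and so no result about the group. These were Gpnmb, Apoe, Cd9, Trem2, Tyrobp and Lpl. For every member, the range over tumors of each strain overlapped that of the next strain in the order of medians.

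Gpnmb had the widest spread between strains. It ran from 19.7 to 61.2 CPM in CC001 tumors, with a median of 38.2 CPM over 8 tumors, and from 2.31 to 9.84 CPM in CC002 tumors, with a median of 5.03 CPM over 6 tumors. No CC002 tumor reached the lowest CC001 tumor, but these strains were picked as the lowest and highest of 8 by median. The share of all genes with such a pair of strains is not given here. The medians of the other 6 host genotypes lay between 10.1 and 16.8 CPM. The edgeR adjusted p for strain was 6.414e-06, and Gpnmb was the only member still called with pool as a block (edgeR adjusted p = 0.01437), where 1623 genes (13%) were called. Cluster 27 held 61.5% of all Gpnmb UMIs. Its median share of macrophage-like cells was highest in CC001 tumors (8.51%), lowest in B6 tumors (3.34%) and 3.99% in CC002 tumors. The part of this share in the strain values of Gpnmb was not tested.

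Cd9 and Trem2 were both highest in CC079 tumors. Cd9 there ran from 376 to 515 CPM with a median of 438 CPM, above all tumors of CC001, CC002, CC075, CC080 and CC007 hosts, while 1 B6 tumor (418 CPM) and 1 CC036 tumor (439 CPM) reached into its range. CC079 was picked as the highest of 8 by median, and the share of all genes with such a strain is not given here. Trem2 in CC079 tumors ran from 298 to 440 CPM with a median of 348 CPM. At the other end, Trem2 ran from 149 to 246 CPM with a median of 182 CPM in CC075 tumors, and from 147 to 306 CPM with a median of 215 CPM in CC036 tumors. The ranges of Trem2 in CC079 and CC075 tumors do not overlap, but these strains were picked as the highest and lowest of 8 by median. They shared no pool, and the share of all genes with such a pair is not given here. The edgeR adjusted p for strain was 0.0003762 for Cd9 and 0.001122 for Trem2. With pool as a block these were 0.06322 and 0.4501.

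The median share of cluster 26 among macrophage-like cells ran from 15.9% in CC036 to 33.1% in CC001 tumors, and its part in the strain values was not tested. Apoe reached its highest values in CC001 tumors, from 3197 to 14230 CPM with a median of 5276 CPM, and its lowest median, 2386 CPM, in CC036 tumors. The 2 highest tumors of all were CC001 isotype tumors, of pools 12 and 1. Tyrobp had a median of 2264 CPM in CC036 tumors against 2699 to 3050 CPM in the other 7 genotypes. Lpl had medians of 46.3 CPM in CC079, 40.7 CPM in CC001, 17.5 CPM in CC002 and 14.9 CPM in CC075 tumors, so that responder strains stood on both sides of the order. The edgeR adjusted p for strain was 0.0003283 for Apoe, 0.007873 for Tyrobp and 0.04825 for Lpl, and with pool as a block 0.5656, 0.06988 and 0.1142. Plin2 (edgeR adjusted p = 0.05762), Fabp5 (0.1267) and Lgals3 (0.3855) did not pass, with strain medians of 190 to 338, 118 to 201 and 1318 to 1855 CPM.

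**Figure D4:**
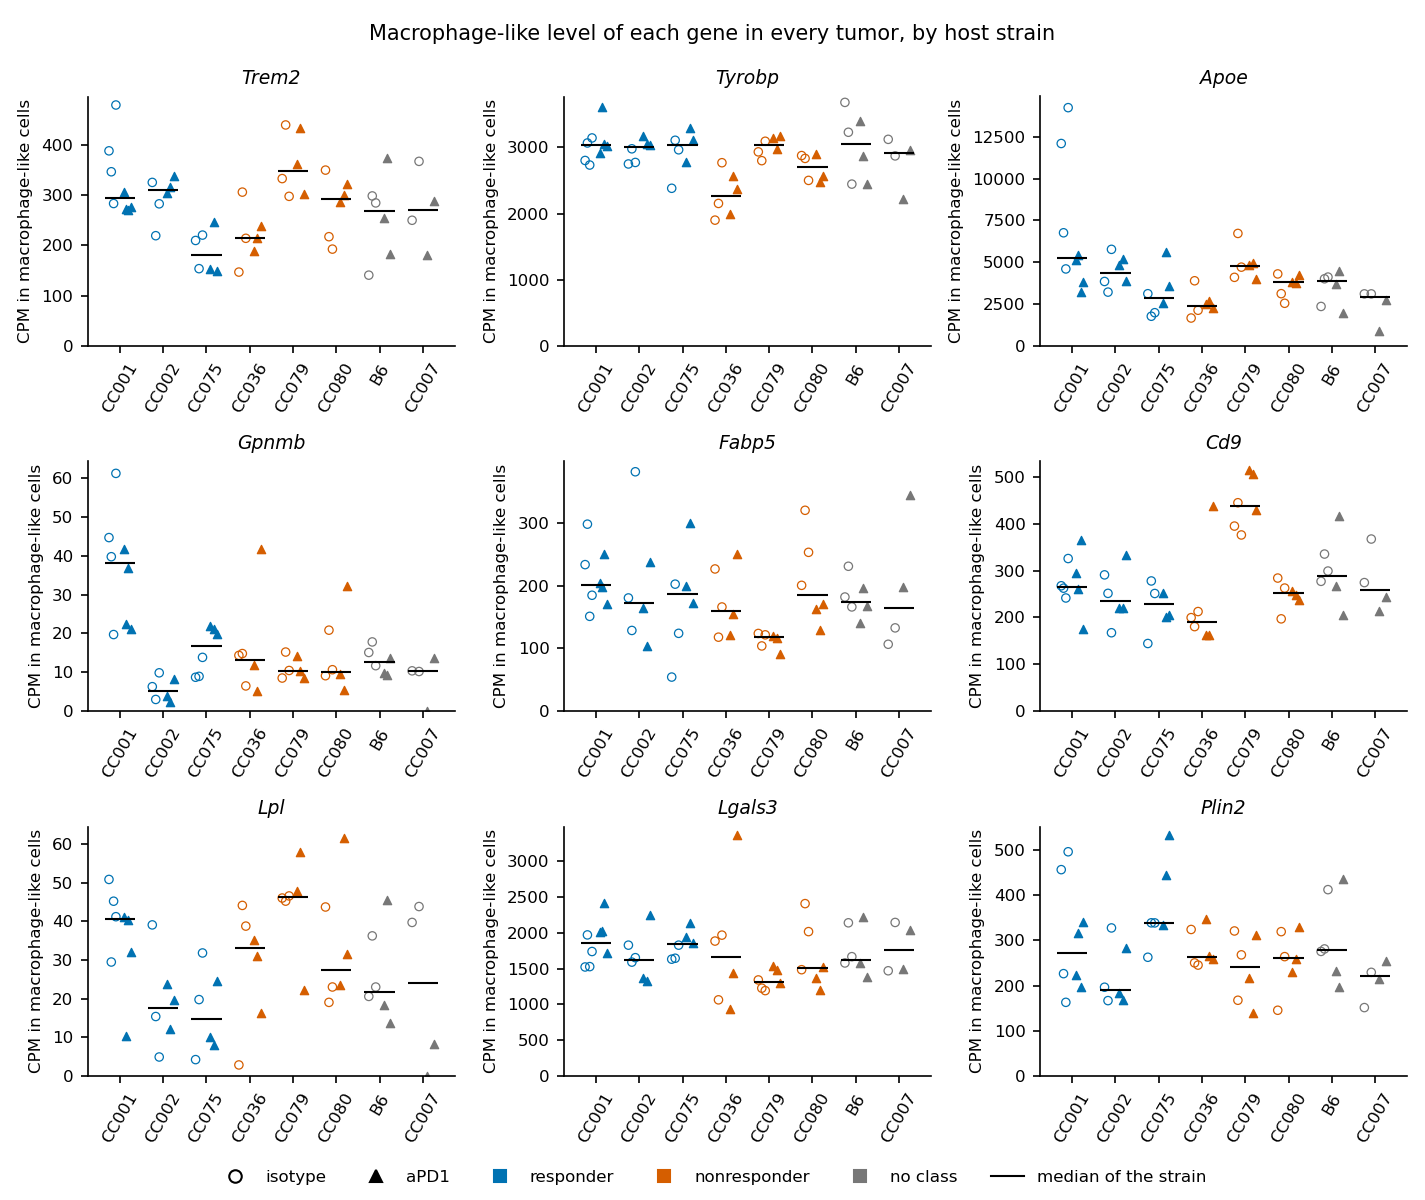
Macrophage-like CPM of each gene in all 48 tumors by host strain, with open circles for isotype, triangles for aPD1, blue for responder, orange for non-responder and grey for strains with no class, and a line at the strain median. Gpnmb is highest in CC001 and lowest in CC002 tumors, both responder strains, and Cd9 is highest in CC079 tumors.

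The main question of the study's design was whether responder and non-responder strains differ. In macrophage-like cells, 20 responder and 18 non-responder tumors were compared with treatment as a term. EdgeR's quasi-likelihood test called 726 of 11406 genes (6.37%), 451 higher and 275 lower in responders. With libraries scaled by total counts alone, the split was 311 higher and 499 lower. Class is a property of the strain, with 3 strains in each, so tumors of a strain are not independent replicates of class and the p-values of class comparisons over tumors, here and within treatments, clusters and lists, are too small. With 1 summed library per strain (3 against 3) edgeR called 3 of 14571 genes, 0 higher and 3 lower in responders, and no member. Over tumors none of the 9 members was called by edgeR or by DESeq2. An unadjusted edgeR p under 0.05 was found for 2 of them and for 2281 of all 11406 genes. The median log2 difference of the 9 members was 0.17, beside -0.004 over all genes tested.

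Trem2 itself was nearly level between the classes. It ran from 149 to 480 CPM with a median of 280 CPM in responder tumors, and from 147 to 440 CPM with a median of 299 CPM in non-responder tumors. These ranges overlap almost fully. The log2 difference, responder minus non-responder, was -0.05 ± 0.13 (SE, edgeR adjusted p = 0.9059), and its interval of 2 SE ran from -0.32 to 0.22.

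Tyrobp came nearest to the threshold. It ran from 2382 to 3613 CPM with a median of 3028 CPM in responder tumors, and from 1901 to 3165 CPM with a median of 2784 CPM in non-responder tumors. The ranges overlap, with 3 of 20 responder tumors above all non-responder tumors. The log2 difference was 0.16 ± 0.06 (SE, edgeR adjusted p = 0.073). It passed the threshold without CC079 hosts (0.26, edgeR adjusted p = 0.01057), in pools 8 to 12 alone (0.32, edgeR adjusted p = 0.04515), without cluster 5 (0.18, edgeR adjusted p = 0.03634) and with pools 1 to 6 or 7 to 12 as a term (0.18, edgeR adjusted p = 0.02047). It was 0.06 without CC036 hosts, the strain with the lowest Tyrobp (edgeR adjusted p = 0.45), and 0.05 in pools 1 to 5 alone (edgeR adjusted p = 0.789). In cluster 26 Tyrobp was called, as given later.

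Gpnmb was higher in responder tumors by 0.62 ± 0.33 on the log2 scale (SE, edgeR adjusted p = 0.2969), which did not pass. It ran from 2.31 to 61.2 CPM with a median of 19.8 CPM in responder tumors and from 5.15 to 41.8 CPM with a median of 10.5 CPM in non-responder tumors. The responder range thus encloses the non-responder range. Without CC001 hosts the log2 difference was -0.40 (edgeR adjusted p = 0.4749), and without CC002 hosts it was 1.00 (edgeR adjusted p = 0.03144). Both the strain with the highest and the strain with the lowest Gpnmb level were responders.

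Apoe ran from 1777 to 14230 CPM with a median of 4230 CPM in responder tumors and from 1671 to 6721 CPM with a median of 3866 CPM in non-responder tumors. Its log2 difference was 0.44 ± 0.20 (SE, edgeR adjusted p = 0.2189), and 0.03 without CC001 hosts. Only 3 of 20 responder tumors exceeded all non-responder tumors. Lpl ran from 4.24 to 50.9 CPM with a median of 24.1 CPM in responder tumors and from 2.87 to 61.5 CPM with a median of 36.9 CPM in non-responder tumors, a log2 difference of -0.48 ± 0.24 (SE, edgeR adjusted p = 0.2655). Without CC001 hosts it was -0.95 (edgeR adjusted p = 0.02889). Leaving out CC001 hosts thus lowered the Apoe and Gpnmb differences and enlarged that of Lpl.

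Cd9 ran from 144 to 365 CPM in responder tumors and from 162 to 515 CPM in non-responder tumors, with medians of 252 and 260 CPM, and 7 of 18 non-responder tumors lay above all responder tumors. Its log2 difference was -0.28 ± 0.14 (SE, edgeR adjusted p = 0.264), -0.47 without CC036 hosts (edgeR adjusted p = 0.03442) and 0.08 without CC079 hosts. CC079 tumors had the highest Cd9 of the 8 genotypes. Fabp5 (0.27 ± 0.17, edgeR adjusted p = 0.4301), Plin2 (0.21 ± 0.15, edgeR adjusted p = 0.4818) and Lgals3 (0.17 ± 0.12, edgeR adjusted p = 0.4537) had medians of 191, 300.1 and 1784 CPM in responder tumors and 142, 261 and 1460 CPM in non-responder tumors. Their ranges overlapped. Over all genes, 7 (0.0614%) had ranges that did not overlap between the classes, and no member was among them.

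**Figure D5:**
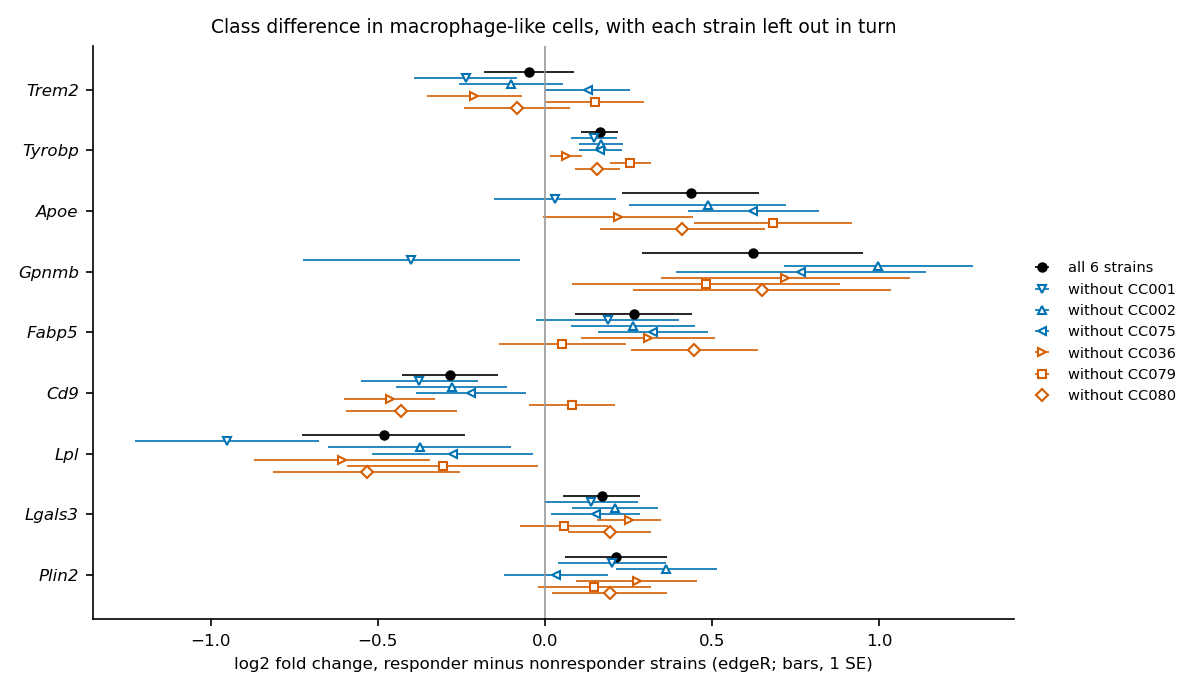
Log2 fold change of each gene between responder and non-responder strains in macrophage-like cells, with 1 SE from edgeR, for all 6 strains (black) and with each strain left out. The sign of Gpnmb turns without CC001 hosts, that of Cd9 without CC079 hosts, and that of Trem2 without CC075 or CC079 hosts.

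Markers of other cells in the macrophage-like sums were followed beside these values. The 6 cDC1 markers, none at 0, summed to 85.6 to 206 CPM in non-responder aPD1 and 127 to 291 CPM in non-responder isotype tumors, against 141 to 322 CPM in responder aPD1 and 172 to 280 CPM in responder isotype tumors. The 8 T/NK markers, none at 0, had group medians of 5.45 to 10.8 CPM, and the 7 fibroblast markers group medians of 4.59 to 6.66 CPM. Group medians of the cDC2, granulocytic and B lists were 122 to 157, 86.1 to 138 and 39.1 to 58.1 CPM. The ranges of the cDC1 list overlapped between the classes. Its medians were 259 and 247 CPM in responder aPD1 and isotype tumors and 140 and 142 CPM in non-responder ones. In sums over all cells they were near these, at 246, 239, 167 and 171 CPM in the same order. The T/NK medians in those sums were 495, 377, 135 and 226 CPM. The cDC1 list thus stood about as high in macrophage-like cells as in whole tumors, so it is no measure of cDC1 cells alone. Its part in the member values was not tested. The 8 macrophage markers summed to 7188 to 18390 CPM in the classed tumors. These markers also named the clusters that were summed, so their level follows from the choice of cells and is no check of it.

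The classes were also compared within each treatment. In isotype tumors (10 and 9) edgeR called 22 of 11255 genes (0.195%) and none of the members, and DESeq2 called no member. At an unadjusted edgeR p under 0.05 were 1 member and 650 of all genes tested. Gpnmb had the largest value there, 0.91 ± 0.43 on the log2 scale (SE, edgeR adjusted p = 0.852), and ran from 2.98 to 61.2 CPM in responder and from 6.46 to 20.8 CPM in non-responder tumors. The log2 difference was 0.64 for Apoe, 0.21 for Plin2, 0.11 for Tyrobp, 0.07 for Fabp5, 0.06 for Trem2 and Lgals3, -0.19 for Cd9 and -0.27 for Lpl. In aPD1 tumors (10 and 9) edgeR called 720 of 11363 genes (6.34%), 447 higher and 273 lower in responders, or 349 and 543 with total counts as the scale. None of the members was called by edgeR or DESeq2. Of them 3, Tyrobp, Fabp5 and Lpl, had an unadjusted edgeR p under 0.05, beside 2511 of the 11363 genes. The log2 difference was 0.20 for Tyrobp, 0.35 for Gpnmb, 0.27 for Lgals3, 0.22 for Apoe, 0.20 for Plin2, -0.17 for Trem2 and -0.39 for Cd9.

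With pool as a block, the aPD1 comparison called 1260 genes (11.1%) and 2 members. Fabp5 was higher in responder aPD1 tumors by 0.41 ± 0.12 on the log2 scale (SE, edgeR adjusted p = 0.04736), with 104 to 299.7 CPM and a median of 199 CPM against 90.8 to 250.3 CPM and a median of 129 CPM. Lpl was lower there, with a log2 difference of -0.84 ± 0.24 (SE, edgeR adjusted p = 0.04404), with 8.05 to 41.2 CPM and a median of 21.6 CPM against 16.4 to 61.5 CPM and a median of 31.5 CPM. Without the block the values were 0.44 ± 0.18 (edgeR adjusted p = 0.15) and -0.70 ± 0.31 (edgeR adjusted p = 0.183). The fatty acid carrier and the lipase thus leaned in opposite directions, and the groups overlapped for both. Over both treatments, CC079 had the lowest Fabp5 and the highest Lpl median of the 8 genotypes, at 118 and 46.3 CPM. Fabp5 medians of CC036 and CC080 were 160 and 185 CPM, beside 172 to 201 CPM in the responder strains. CC001, a responder strain, had the next highest Lpl median, 40.7 CPM.

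The effect of 1 dose of aPD1 was tested within each class, with strain as a term. In responder tumors edgeR called 0 of 11203 genes (0%), with 1476 at an unadjusted p under 0.05 and 22 called by DESeq2, and no member was among either set of calls. In non-responder tumors edgeR called 0 of 11408 genes (0%), with 164 at an unadjusted p under 0.05 and 0 called by DESeq2. None of the 9 members had an unadjusted p under 0.05 in either class. Trem2 differed between aPD1 and isotype tumors by -0.13 ± 0.12 in responder and 0.07 ± 0.14 in non-responder strains on the log2 scale (SE, edgeR adjusted p = 0.6528 and 0.9998). In responder strains the aPD1 differences of Tyrobp, Apoe, Gpnmb, Fabp5, Cd9, Lpl, Lgals3 and Plin2 lay between -0.42 (Lpl) and 0.16 (Lgals3), and in non-responder strains between -0.26 (Fabp5) and 0.34 (Gpnmb).

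Tumors of the same pool and strain can be paired. Tyrobp was higher in the aPD1 tumor in 9 of 10 responder pairs, with a median log2 ratio of 0.11, and in 7 of 9 non-responder pairs. Trem2 was higher in 3 of 10 responder and 6 of 9 non-responder pairs, and Lpl in 2 of 10 and 5 of 9. These counts are given as a description. The test of whether the aPD1 effect differed between the classes called 1 of 11873 genes (0.00842%) and no member, with no member at an unadjusted p under 0.05 and none called by DESeq2. For Trem2 this difference of effects was -0.20 ± 0.19 (SE, edgeR adjusted p = 0.7039). For Tyrobp, Apoe, Gpnmb, Fabp5, Cd9, Lpl, Lgals3 and Plin2 it lay between -0.43 (Lpl) and 0.38 (Fabp5).

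Classes were also compared within clusters, in the 17 clusters with at least 20 cells in at least 6 tumors of each class. Over these, 1679 of 77546 gene tests (2.17%) were called. A single test of a member was among them, that of Tyrobp in cluster 26, where 719 of 9416 genes (7.64%) were called. The median of Tyrobp in cluster 26 was 3012 CPM in 20 responder tumors and 2551 CPM in 18 non-responder tumors, a log2 difference of 0.29 ± 0.06 (SE, edgeR adjusted p = 0.002441). It was 1 of 100 tests of members within clusters. Leaving out each strain in turn, it was called each time, with the log2 difference from 0.18 without CC036 hosts (edgeR adjusted p = 0.04267) to 0.39 without CC079 hosts (edgeR adjusted p = 0.001771). Trem2, the receptor, had medians in the same cluster of 369 and 403 CPM and a log2 difference of -0.11 ± 0.10 (SE, edgeR adjusted p = 0.5733), which turned sign without CC075 or CC079 hosts.

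Lgals3 in cluster 26 had medians of 1364 CPM in responder and 902 CPM in non-responder tumors (log2 difference 0.39 ± 0.14, edgeR adjusted p = 0.07138). It was called with at least 50 cells per tumor (0.45, edgeR adjusted p = 0.03028) and without CC036 hosts (0.54, edgeR adjusted p = 0.001866). It was 0.25 without CC079 and 0.27 without CC075 hosts (edgeR adjusted p = 0.441 and 0.3267). Leaving out any strain but CC036, it was not called in cluster 26. Cd9 was called there with libraries scaled by total counts alone (-0.51, edgeR adjusted p = 0.04507) and without CC036 hosts (-0.62, edgeR adjusted p = 0.02679), and was at -0.03 without CC079 hosts. In cluster 27 no member was called by edgeR among the 8 tested. Fabp5, Lgals3 and Tyrobp (0.18 ± 0.08, edgeR adjusted p = 0.4349) had an unadjusted p under 0.05, as had 494 of all 4660 genes tested there. Fabp5 there had medians of 905 and 559.8 CPM (0.57 ± 0.18, edgeR adjusted p = 0.1329), Lgals3 of 5232 and 4247 CPM (0.30 ± 0.11, edgeR adjusted p = 0.2616), and Gpnmb, which had no such p, of 192 and 125 CPM (0.46 ± 0.27, edgeR adjusted p = 0.5836), responders first.

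In sums over all cells of a tumor, edgeR called 388 of 12770 genes (3.04%) between the classes, 232 higher and 156 lower in responders, or 204 and 215 with total counts as the scale. None of the 9 members was called by edgeR or DESeq2. An unadjusted edgeR p under 0.05 was found for 2 of them and for 1773 of the 12770 genes. In such sums, fewer cells of a type and less RNA per cell cannot be told apart. Trem2 ran from 79.2 to 357 CPM with a median of 209 CPM in responder tumors and from 59.7 to 330 CPM with a median of 225 CPM in non-responder tumors. Lpl had the lowest adjusted p, with medians of 23.0 and 33.9 CPM and a log2 difference of -0.61 ± 0.25 (SE, edgeR adjusted p = 0.2249). The log2 difference was 0.67 for Gpnmb, 0.39 for Apoe, 0.20 for Plin2, 0.13 for Lgals3, 0.09 for Tyrobp, 0.03 for Fabp5, -0.10 for Trem2 and -0.27 for Cd9. Of the related genes described next, Folr2 and Ccr2 were called in these sums, both lower in responders.

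Genes around the members in the same pathways were taken from lists of related genes and compared between classes in macrophage-like cells, against the 6.37% of all genes called. These calls rest on tumors as replicates, and none of the genes named from the lists was called with 1 summed library per strain. Of 8 genes of TREM2 signalling and shedding, 1 was called, Hcst, the DAP10 adaptor, which was higher in responders by 0.31 ± 0.08 on the log2 scale (SE, edgeR adjusted p = 0.008705). Hcst was highest in T/NK-like cluster 7, at 769.7 CPM against 48.0 CPM over the macrophage-like cells, and the T/NK markers in the macrophage-like sums had medians of 10.3 and 5.45 CPM in responder aPD1 and isotype tumors and of 7.63 and 6.76 CPM in non-responder ones. Their part in the Hcst value was not tested. Syk and Plcg2, the kinase and the phospholipase of the pathway, had log2 differences of 0.09 and -0.003. None of 4 other TREM family receptors, 9 cholesterol efflux and LXR genes and 7 lipid droplet genes tested was called by edgeR. At an unadjusted edgeR p under 0.05 these lists had 0, 4 and 1 genes, beside 2281 of all 11406 genes. Of 24 other lipid-associated macrophage genes tested, 3 were called, all higher in responders: Lipa, the lysosomal acid lipase (0.38 ± 0.11), Npc2, which moves cholesterol out of lysosomes (0.27 ± 0.09), and Ctsz, a cathepsin (0.20 ± 0.05). Their edgeR adjusted p-values were 0.03714, 0.04537 and 0.009195, and the median log2 difference of the list was 0.01.

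Of the 6 resident macrophage genes 2 were called, both lower in responders, Folr2, a folate receptor (-1.55 ± 0.31, edgeR adjusted p = 0.001346), and Mrc1, the mannose receptor (-0.58 ± 0.17, edgeR adjusted p = 0.03147). Both were highest in cluster 9, Folr2 at 378 CPM against 23.4 CPM and Mrc1 at 1479 CPM against 230 CPM over the macrophage-like cells. Cluster 9 had a median share of these cells of 0.657% and 1.05% in responder aPD1 and isotype tumors and of 1.55% in both groups of non-responder tumors, and the part of this share was not tested. Of the 6 monocyte genes 1 was called, Ccr2, a chemokine receptor, which was lower in responders (-0.48 ± 0.12, edgeR adjusted p = 0.01134). The median log2 difference was -0.83 over the resident and -0.49 over the monocyte genes tested, and 0.06, 0.15, 0.12 and 0.06 over the TREM2 signalling, TREM family, efflux and droplet genes, beside -0.004 over all genes. With 1 summed library per strain the log2 difference was 0.31 for Hcst (edgeR adjusted p = 0.8634) and -1.64 for Folr2 (edgeR adjusted p = 0.5529). In isotype tumors alone no gene of the 7 lists was called by edgeR. An unadjusted edgeR p under 0.05 was found for 3 list genes and for 650 of all 11255 genes. Hcst was at 0.22 ± 0.11 and Folr2 at -1.19 ± 0.46 there (edgeR adjusted p = 0.8753 and 0.67). The median log2 difference was -0.35 over the 5 resident genes tested there and -1.31 over the 6 tested in aPD1 tumors, which included Lyve1 as well. In the test of whether the aPD1 effect differed between the classes, 0 genes of the lists were called by edgeR. An unadjusted edgeR p under 0.05 was found for 9 list genes and for 1322 of all 11873 genes. In aPD1 tumors alone, Abcg1, a cholesterol exporter, was higher in responders (0.59 ± 0.17, edgeR adjusted p = 0.03767), and Atp6v0d2, a proton pump subunit, was lower (-1.57 ± 0.33, edgeR adjusted p = 0.008297). Atp6v0d2 was at 368 CPM in cluster 15 against 6.79 CPM over the macrophage-like cells, and cluster 15 had a median share of 0.126% in responder and 0.358% in non-responder aPD1 tumors, whose part was not tested. Hcst, Lipa and Npc2 were again higher, and Folr2, Ccr2 and the scavenger receptor gene Cd163 lower, in that comparison. Between strains, 5 of 8, 5 of 5, 15 of 24, 5 of 9, 5 of 7, 6 of 6 and 6 of 6 genes tested were called for the TREM2 signalling, TREM family, lipid-associated, efflux, droplet, resident and monocyte lists, against 51.7% of all genes.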

How the data were processed

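The authors deposited raw UMI counts per gene and cell, made with Cell Ranger on GRCm38 (mm10), and a table of each cell's pool, animal, strain, treatment, hashtag and cluster number. They removed cells above 15% mitochondrial or 45% ribosomal UMIs and clustered in Seurat 5.0.1 with harmony for the processing date, which can even out differences between dates in the clusters but leaves the counts as they are. Each cell carried 1 hashtag, and no further doublet caller was run here. All counts were whole numbers. A deposited list of hashtag barcodes holds no measurement and was left aside.

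The replicate was the tumor, a hashtagged specimen of 1 pool, and p-values measure the spread between tumors. Response class came from the study's text and not from the labels. Clusters were named from marker genes where at least 3 markers and 50% of a list reached 100 CPM, unless the 10 leading genes of at least 50 CPM went against the name. Cluster 5 was kept as macrophage-like although immunoglobulin and hemoglobin genes were among its leading genes, a choice made after its values were seen. Members and gene lists were chosen with earlier results of these data known. The rule for naming took all 9 members in every comparison and, of each list, up to 4 called genes. Beyond clusters 26 and 27, members within clusters, and called list genes between strains, are given as counts only.

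Counts were summed per tumor and tested in R 4.3.3 with edgeR 4.0.16 (glmQLFit, glmQLFTest, TMM scaling, filterByExpr), with Benjamini-Hochberg adjustment over all genes tested and a threshold of 0.05. The SE was the log2 fold change divided by the square root of F. DESeq2 1.42.0, other scalings, no filter, pool as a block and left-out pools or strains were alternatives. Correlations across tumors used log2(CPM + 1) after TMM scaling (CPM per tumor is on that scale, CPM per cluster is unscaled) and 100000 permutations in NumPy 2.4.6. An adjustment over the 8 relations was replaced by an edgeR fit over all genes, added after seeing the data. Of the fits, the edgeR class comparison in macrophage-like cells was tested on simulated counts. These were drawn independently for each tumor with no strain or pool effect, so they cannot show the effect of class being nested in strain. A pool is a shared library, so it pairs tumors: deviations of the isotype and aPD1 tumor of the same pool and strain had a median correlation of 0.381 over 24 pairs (lowest -0.266), of tumors of different strains in a pool 0.295, and of other pairs -0.019. Gene positions came from a GENCODE annotation of GRCm38 and start regions from RefSeq.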

Additional observations from a re-analysis of the deposited data

Results flagged for a closer look

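A test for a tumor far from the rest of its group was run on 108 groups of 4 to 10 tumors, for which chance gives about 1 in 20, and it marked 7 single values in macrophage-like cells. Of these, 4 were highest values of the same tumor, the CC036 aPD1 tumor of pool 10. Gpnmb was at 41.8 CPM there, against 14.8 CPM in the next of 6 CC036 tumors, and Cd9 at 439 CPM against 213 CPM. Among 9 non-responder aPD1 tumors, the same tumor had the highest Fabp5 (250.3 CPM, next 170.1 CPM) and Lgals3 (3364 CPM, next 1532 CPM). Cluster 27, in which these 4 genes were higher than in the other macrophage-like cells, made up 11.4% of the macrophage-like cells of this tumor, against a median of 5.60% over the 9 non-responder aPD1 tumors. Outside cluster 27, this tumor was also the highest of the 6 CC036 tumors for Cd9 (438.9 CPM, next 197.6 CPM) and Lgals3 (3022 CPM, next 1824 CPM), but not for Gpnmb (6.885 CPM, highest 9.665 CPM) or Fabp5 (145.7 CPM, highest 207.3 CPM).

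The other values came from different tumors. Tyrobp was at 3613 CPM in the CC001 aPD1 tumor of pool 2, against 3142 CPM in the next of 8 CC001 tumors. Apoe was at 6721 CPM in the CC079 isotype tumor of pool 2, against 4949 CPM in the next of 6 CC079 tumors. Lpl was lowest in the CC079 aPD1 tumor of pool 5, at 22.3 CPM against 45.2 CPM in the next. Whether these values belong to the host, the pool or the cells sampled was not tested.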

How the results depend on the processing

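Of the class comparison in macrophage-like cells, no alternative called more than 1 member: the number called was 1 without CC001, CC002, CC036 or CC079 hosts, in pools 8 to 12 alone, without cluster 5 and with pools 1 to 6 or 7 to 12 as a term, and 0 without any single pool. With 1 summed library per strain, the number of genes called fell from 726 to 3 in macrophage-like cells and from 388 to 2 over all cells, with 0 members. Leaving out cluster 5 or cluster 27, leaving out strains within cluster 26, the pool term and the edgeR fits on the Trem2 level were chosen after seeing the data. In sums over all cells the number was 1 without CC001 hosts (Lpl) or CC002 hosts (Gpnmb). Within clusters it was 2 with at least 50 cells per tumor and with scaling by total counts. Without single pools, the log2 difference ran from -0.138 to 0.031 for Trem2, 0.114 to 0.195 for Tyrobp, 0.397 to 0.801 for Gpnmb and -0.567 to -0.358 for Lpl. It ran from 0.307 to 0.509 for Apoe, 0.163 to 0.353 for Fabp5 and -0.366 to -0.186 for Cd9. For Lgals3 it ran from 0.124 to 0.29 and for Plin2 from 0.133 to 0.302. Strain called 5 to 7 members without single pools.

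With pool as a block (pairing by shared library) 2 members were called in the aPD1 comparison and 1 in the strain comparison, and the number called stayed at 0 in the other comparisons refitted so. With that block the log2 difference turned sign for Trem2 (-0.1426) and Fabp5 (-0.0800) in isotype tumors, for the aPD1 effect on Plin2 in responders (0.0310) and Lpl in non-responders (-0.0235), for the Plin2 interaction (0.0063) and for Fabp5 over all cells (-0.0086).

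Other differences that turned sign all lacked a call. In macrophage-like cells these were Trem2 without pool 2 (0.0313), CC075 (0.1276) or CC079 hosts (0.1488) and in pools 8 to 12 (0.1206), Gpnmb without CC001 (-0.4006), Cd9 without CC079 (0.0807) and in pools 8 to 12 (0.0129), Plin2 in pools 1 to 5 (-0.0475), and in the aPD1 effect in responders Cd9 by total counts (-0.0285) and Plin2 without a filter (0.0024). Over all cells they were Trem2 without CC075 (0.0622) or CC079 (0.1453) and in pools 8 to 12 (0.0960), Tyrobp without CC036 (-0.0134) and in pools 1 to 5 (-0.0435), Apoe (-0.0581) and Gpnmb (-0.2759) without CC001, Cd9 without CC079 (0.0769) and in pools 8 to 12 (0.0260), Plin2 in pools 1 to 5 (-0.0916), and Fabp5 by total counts (-0.0048), without pool 1 (-0.0004) or 2 (-0.0773; 0.1005 at the highest, without pool 4), without CC002 (-0.0147) or CC079 (-0.1435) and in pools 8 to 12 (-0.1230). Within cluster 26 they were Trem2 without CC075 (0.0345) or CC079 (0.0156), Apoe without CC001 (-0.0158) and Lpl without CC075 (0.0778). Correlations with Trem2 that turned sign or lost a permutation p under 0.05 were those of Tyrobp (-0.116) and Plin2 (-0.164) in pools 1 to 5, and of Fabp5 (0.066), Plin2 (0.023), Cd9 (0.250) and Lpl (0.362) in pools 8 to 12. With strain and treatment as terms the edgeR slope of Lgals3 was 0.071. The cause was not tested. Between strains, Lpl was called in 7 of 17 alternatives and Plin2 in 7 of 17. Depth was lowest in a tumor of 53 cells, in which Gpnmb and Lpl had a count of 0.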
